A study of Carassius gibelio with 26 samples.

Results

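Chromosomes 1, 27 and 38 of the goldfish genome assembly were followed in testis RNA of 26 gibel carp (Carassius gibelio) males, because on each of them the genes of 1 male had been seen to lie slightly to one side of the other males. The genes described are those whose first listed chromosome in the count table is 1, 27 or 38, with a mean of at least 1 CPM over the 26 libraries, where CPM is a gene's count divided by its library's total, times 1000000. They numbered 2009 of the 34304 genes at that level and of the 62131 genes listed, with 642 genes on chromosome 1, 791 on chromosome 27 and 576 on chromosome 38. The chromosomes were chosen by the median deviation of their genes in single males (defined below), so all values of single males below are a description and carry no test.

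Gibel carp has diploid fish that breed sexually and triploid females that breed by gynogenesis, in which sperm starts development of the egg and its genes are not passed on. Daughters and sex-reversed sons of such a female are near copies of her genome. Goldfish and gibel carp descend from an ancestor whose genome was doubled, and the numbered chromosomes used here are those of the goldfish. In many animals the RNA of a gene tends to follow the number of its copies. DNA was not measured here, so the copies of each chromosome are unknown in every male.

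All males were 2 years old. The 10 diploid males, called 2n, came from crosses of diploid parents and developed at 22 °C. The triploid males (3n) were sons of gynogenetic females, whose eggs had been started with sperm of gibel carp, common carp or bream, and per male the sperm is not given. The 5 males of group 1 were sampled at 28 and 31 °C from a mother whose young changed sex when warm and not at 22 °C. The 5 males of group 2, sampled at 28 to 31 °C, and the 6 of group 3, kept at 22 °C, came from a mother whose young often changed sex at 22 °C as well. Library names carry a second number with no stated meaning, which was 11 in all 5 males of group 2 and in 4 of group 3, and 12 in replicates 1 and 2 of group 3. In 2n it was 14 in replicates 1, 2, 5, 6 and 7, 106 in replicate 3 and 108 in replicates 4, 8, 9 and 10. In group 1 it was 4, 6, 5, 5 and 4 in replicates 1 to 5. The names also give 31 °C for replicates 1 to 3 of group 1 and all of group 2, and 28 °C for replicates 4 and 5 of group 1. Between 2n and 3n males, ploidy, parents and the way of breeding cannot be told apart. Groups 1 and 2 also differed from 2n in temperature. Group 1 differed from group 3 in both mother and temperature, so these cannot be told apart there. The number of mothers per group is uncertain, so p-values measure the spread between males that may be close relatives. The IDs of the count table could not be paired with gene names, so the tissue could not be checked against testis markers and no gene function is given.

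Libraries held 15375923 to 29503544 counts. Genes of chromosome 1 took on average 2.01% of them, those of chromosome 27 took 2.53% and those of chromosome 38 took 1.98%. At the threshold, the lowest mean inside was 1.003 CPM on chromosome 1, 1.0002 on chromosome 27 and 1.007 on chromosome 38, and the highest mean outside was 0.978, 0.997 and 0.972 CPM. The median gene averaged 10.2 CPM on chromosome 1, 11.5 on chromosome 27 and 12.7 on chromosome 38, against 10.5 over the 27016 such genes of all 50 numbered chromosomes. Median exon length was 2218 bases, 2259 and 2160 bases in the same order. Both strands held similar numbers of genes. Replicates 1 and 2 of group 1 stood apart in scaling, with TMM normalization factors of 1.45 and 1.36 against 1.05 to 1.09 in replicates 3 to 5, so group comparisons below are also given without them.

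To place a single male, each gene's log2(CPM + 0.5) had subtracted from it the median of all other males in the same group, with groups 2 and 3 taken as 1 reference, and the library's own median over all genes was taken out. The result is called the deviation of the gene, and a chromosome's value is the median over its genes. Of the 78 combinations of these chromosomes with a male, 3 lay beyond 0.1 in either direction, all in groups 2 and 3 and each in a different male. Over all 50 chromosomes, 9 of 1300 combinations lay beyond 0.1, and the median size was 0.013.

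Genes of chromosome 38 were higher in group 3 replicate 6, with a median deviation of 0.155, or 11.3% above the reference. The other 5 males of group 3 lay between -0.014 and -0.005 and the 5 of group 2 between -0.022 and 0.006, so no male overlapped with it. In this male 416 of the 576 genes (72.2%) were above 0. Of the counts, 2.24% fell on chromosome 38, and the 10 other males of groups 2 and 3 had 1.94 to 2.03%. In a bulk sample, fewer cells of a type and less RNA per cell cannot be told apart, and this holds for each difference between males below.

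Genes of chromosome 27 were lower in group 2 replicate 4, with a median deviation of -0.146, a change of -9.61% from the reference. The others of group 2 measured 0.009, -0.007, 0.025 and -0.002 in replicates 1, 2, 3 and 5, and group 3 ran from 0.009 to 0.036. Group 2 replicate 4 again stood alone, with 613 of 791 genes (77.5%) below 0. The chromosome held 2.22% of its counts, and 2.45 to 2.54% in the 10 other males of groups 2 and 3.

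Chromosome 1 was lower in group 3 replicate 1, with a median deviation of -0.134, a change of -8.87% from the reference. The other 5 males of group 3 lay between -0.010 and 0.012 and group 2 between -0.015 and 0.011. Below 0 were 461 of its 642 genes (71.8%). Of its counts 1.76% fell on chromosome 1, against 1.93 to 2.10% in the 10 other males of groups 2 and 3. Group 3 replicate 2, the one other male with the second library number 12, measured -0.010 and lay with the rest.

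**Figure D1:**
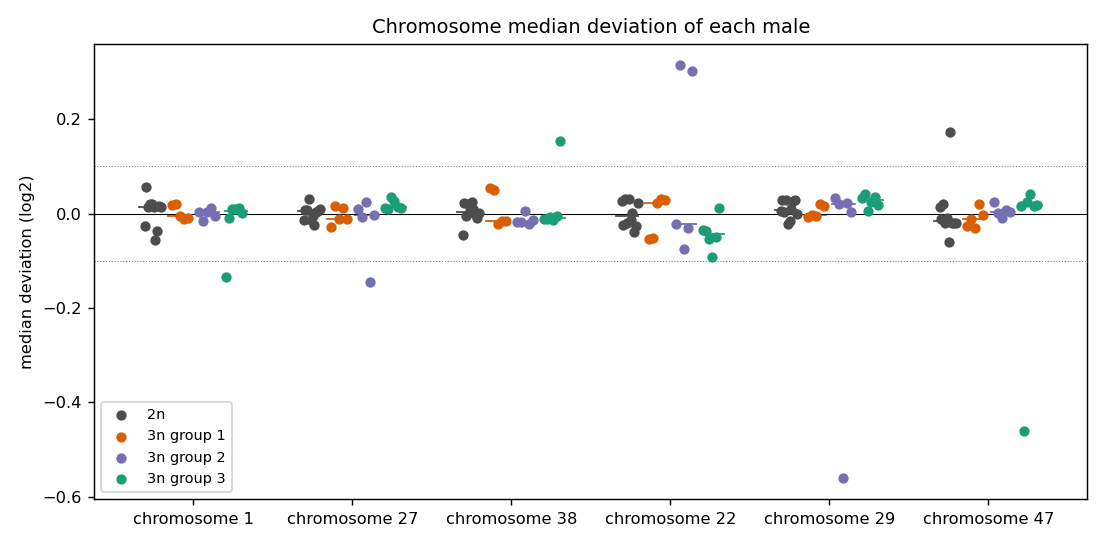
Median deviation (log2) of each male on chromosomes 1, 27 and 38 and on chromosomes 22, 29 and 47, 1 point per male coloured by group. Short lines are group medians and dotted lines mark 0.1 on either side. On chromosomes 1, 27 and 38 only group 3 replicate 1 (-0.134), group 2 replicate 4 (-0.146) and group 3 replicate 6 (0.155) lie beyond the dotted lines.

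In size these 3 values stood between the common scatter and 4 larger ones of the same groups. Larger deviations were found on chromosome 29 in group 2 replicate 3 (-0.561), on chromosome 47 in group 3 replicate 2 (-0.461) and on chromosome 22 in group 2 replicates 2 (0.316) and 5 (0.301). The value of chromosome 38 came to 27.6% of the size of the first and 51.3% of the last. For chromosome 27 these shares were 25.96% and 48.3%, and for chromosome 1 they were 23.9% and 44.5%. No male held both a larger and a smaller one. In the males concerned, the other 49 chromosomes stayed within -0.045 and 0.050 (group 3 replicate 6), -0.031 and 0.030 (group 2 replicate 4) and -0.034 and 0.037 (group 3 replicate 1).

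Cut into windows of 1 Mb with at least 5 genes, chromosome 27 gave 32 windows, and in group 2 replicate 4 the median of each of the 32 was below 0. The range ran from -0.257 in the window from 8000001 to 9000000 (30 genes) to -0.010 in the window from 3000001 to 4000000 (19 genes). In the 10 other males of groups 2 and 3, between 8 and 19 of the 32 windows were below 0. For 25 windows, group 2 replicate 4 was lower than all 10.

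Chromosome 38 was above 0 in 23 of 24 windows in group 3 replicate 6. The exception was the first Mb, at -0.010 with 17 genes, and the highest window, at 0.224 with 35 genes, ran from 4000001 to 5000000. Other males had 6 to 12 windows above 0. In 20 windows this male exceeded all 10 others.

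Chromosome 1 was less even. Group 3 replicate 1 was below 0 in 29 of 33 windows, where the other 10 males were so in 11 to 19. It was lower than all of them in 21 windows. Its lowest window reached -0.276 (28000001 to 29000000, 15 genes). The 4 windows above 0 were those from 2000001 to 3000000 (0.066, 14 genes), 3000001 to 4000000 (0.019, 7 genes), 7000001 to 8000000 (0.007, 12 genes) and 23000001 to 24000000 (0.025, 6 genes). Between the first pair and the third lay 3 windows below 0, and the fourth stood alone. The windows from 30000001 to 34000000 were below 0 by less, at -0.053, -0.025, -0.077 and -0.088 (25, 32, 30 and 21 genes). Of these, the window from 32000001 to 33000000 alone was lower than in all 10 other males.

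**Figure D2:**
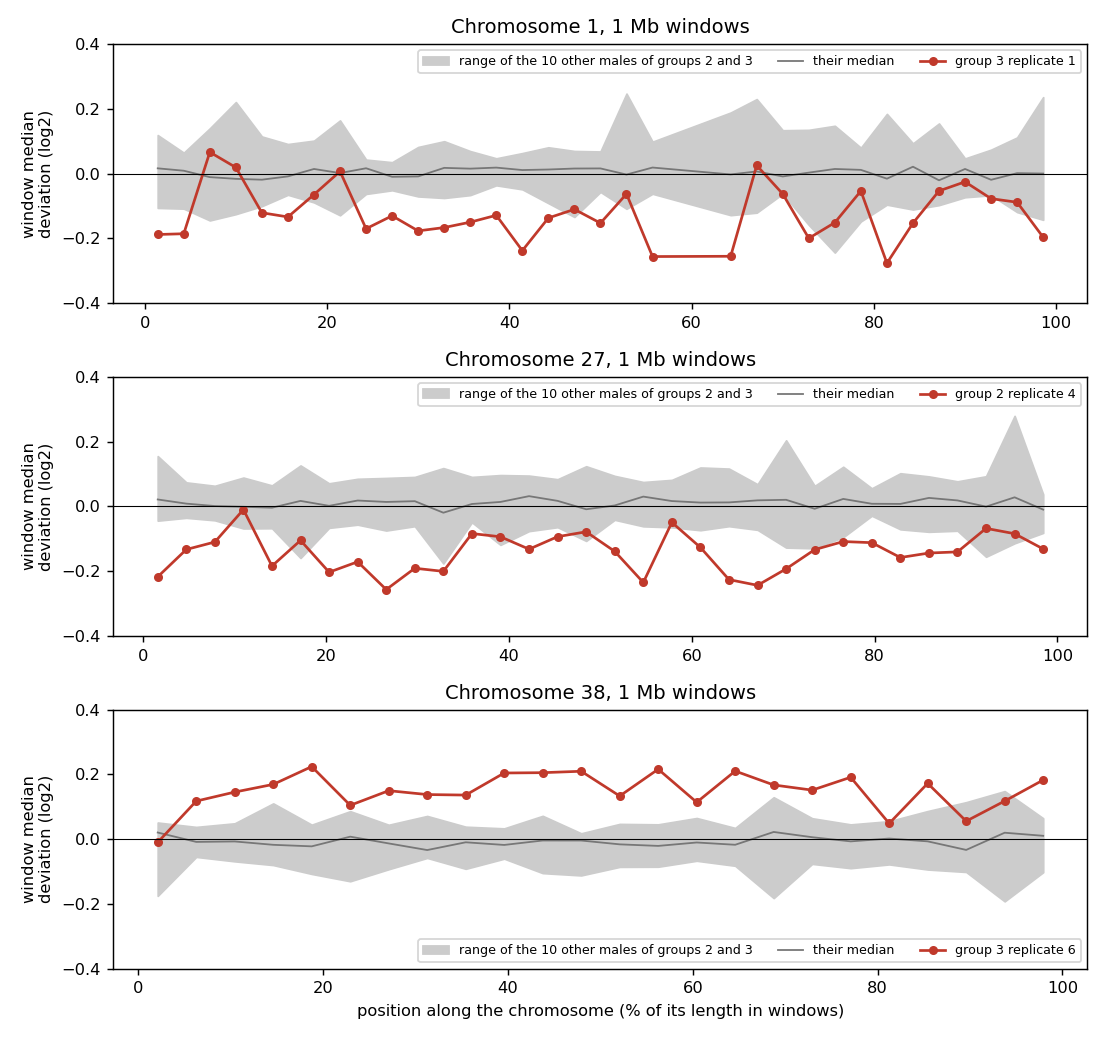
Median deviation (log2) of each 1 Mb window along chromosomes 1, 27 and 38, against position in percent of the chromosome's length. The red line is the male with the shift, the grey band the range and the grey line the median of the 10 other males of groups 2 and 3, and lines join across windows with under 5 genes. The red line leaves the band in 21 of 33, 25 of 32 and 20 of 24 windows. It lies below the band in the last window of chromosome 1 and inside it in the first of chromosome 38.

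Split into 3 stretches with equal numbers of windows, each chromosome was displaced in all 3. Chromosome 38 measured 0.147, 0.177 and 0.149 from start to end in group 3 replicate 6. Chromosome 27 measured -0.164, -0.146 and -0.136 in group 2 replicate 4, and chromosome 1 measured -0.108, -0.156 and -0.123 in group 3 replicate 1. In each stretch the male lay beyond all 10 other males of groups 2 and 3, so no shift was limited to 1 stretch.

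A segment was also looked for directly, as the run of at least 5 neighbouring windows whose mean differed most from the rest of the chromosome. The difference was weighted by the numbers of windows in the run and outside it. On chromosome 38 the best run, from 2000001 to 19000000, averaged 0.169 and the rest 0.098, both above 0. On chromosome 27 the run from 6000001 to 11000000 averaged -0.204 and the rest -0.131. On chromosome 1 the run from 2000001 to 8000000 averaged -0.038 and the rest -0.141. Ranked by size of contrast over 1274 combinations of male and chromosome, these runs had the ranks 837, 875 and 516. The ranking pooled males of all groups, and single windows scattered more widely in diploid males than in the groups of these males. A low rank therefore cannot decide whether a segment was present, and a ranking within the groups of these males was not made.

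The shift was shared by many genes rather than carried by a few. On chromosome 38, 216 genes (37.5%) of group 3 replicate 6 were higher than in all 10 other males of groups 2 and 3, compared with 10.5% of this male's genes on the other 49 chromosomes. Among the 10 others the share on chromosome 38 ran from 1.74 to 12.7%. On chromosome 27, 212 genes (26.8%) of group 2 replicate 4 were lower than in all others, compared with 7.05% elsewhere and 3.29 to 13.5% in other males. On chromosome 1, 149 genes (23.2%) of group 3 replicate 1 were the lowest, compared with 9.38% elsewhere and 3.74 to 14.6% in other males.

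The whole distribution of gene deviations was displaced on chromosomes 27 and 38, less so at the lower end of chromosome 38. On chromosome 1 the upper end was displaced less. On chromosome 38 the 10th, 50th and 90th percentiles of group 3 replicate 6 lay 0.087, 0.167 and 0.163 above the median of the 10 other males. On chromosome 27 the same percentiles of group 2 replicate 4 lay at -0.116, -0.158 and -0.154 from it. On chromosome 1 those of group 3 replicate 1 lay at -0.129, -0.138 and -0.026, so only its upper end of deviations was near that of the others.

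**Figure D3:**
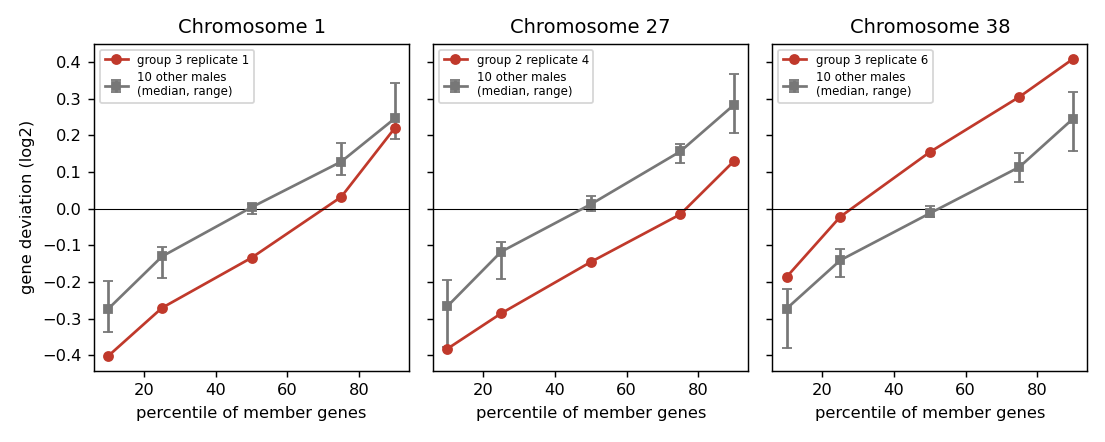
Deviation (log2) at the 10th, 25th, 50th, 75th and 90th percentile of the genes of each chromosome. Red points are the male with the shift, grey squares the median and bars the range of the 10 other males of groups 2 and 3. The red curve runs below the grey on chromosomes 1 and 27 and above it on chromosome 38, and on chromosome 1 the distance narrows from -0.138 at the 50th to -0.026 at the 90th percentile.

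By level of expression, the genes of chromosome 38 in group 3 replicate 6 had a median deviation of 0.001 at 1 to 8 CPM, 0.200 at 8 to 32 CPM and 0.221 at 32 CPM and more. The genes of chromosome 1 in group 3 replicate 1 showed no such rise over the 3 classes, with -0.125, -0.156 and -0.125. Each class of genes was then set against genes of the same class on the other 49 chromosomes in the same male. On chromosome 38 the difference was 0.066 for 216 genes of 1 to 8 CPM, 0.175 for 211 genes of 8 to 32 CPM and 0.180 for 149 genes of 32 CPM and more. On chromosome 1 it was -0.087 for 278 genes, -0.139 for 210 and -0.206 for 154 in the same order. Genes of the same classes on the other chromosomes measured -0.038, -0.017 and 0.081. From the first class to the second, the genes of chromosome 1 and those of the others moved in opposite directions. From the second to the third, the difference grew although the genes of chromosome 1 moved back towards 0. On chromosome 27 the difference was -0.144 for 339 genes, -0.161 for 252 and -0.162 for 200. At low counts, the 0.5 added to each CPM draws deviations towards 0, and its part in these values was not tested. By strand the values were 0.162 and 0.158 on chromosome 38, -0.166 and -0.127 on chromosome 27, and -0.129 and -0.138 on chromosome 1, for the plus and the minus strand.

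**Figure D4:**
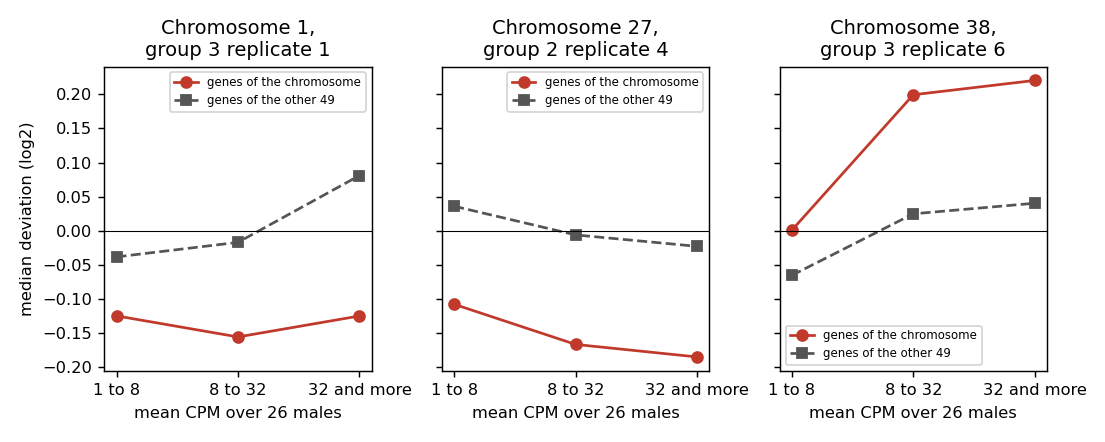
Median deviation (log2) by class of mean CPM in the male with the shift, for the genes of the chromosome (red points) and of the other 49 chromosomes (grey squares). In each of the 3 classes the red point lies below the grey square on chromosomes 1 and 27 and above it on chromosome 38.

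Genes of these chromosomes under 1 CPM are not among the 2009 and moved the same way. Summed over 279 such genes of chromosome 38 and set against low genes of the other chromosomes, group 3 replicate 6 was 0.215 above its reference on the log2 scale, from 1230 counts, and the 10 others ran from -0.115 to 0.081. For 566 low genes of chromosome 27, group 2 replicate 4 was at -0.118 from 2061 counts, outside the others at -0.088 to 0.080. For 432 low genes of chromosome 1, group 3 replicate 1 was at -0.181 from 1407 counts, and the others ran from -0.044 to 0.072. They come from the same libraries and are no independent measurement.

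Depth and mitochondrial share of these 3 libraries lay within or near the range of the other males of groups 2 and 3. Totals were 24867075 counts in group 3 replicate 6 and 23237115 in group 2 replicate 4, inside the others' 15492277 to 27142412. Group 3 replicate 1 was the deepest of the 11, with 27142412 counts, and had the lowest normalization factor, 0.773 against 0.837 to 0.973. Its library median before centring was -0.159, where the others had -0.047 to 0.166. The part of these 2 values in the shift of chromosome 1 was not tested, and with the factor applied in place of centring the chromosome measured -0.125.

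No male of 2n or group 1 lay beyond 0.1 on chromosomes 1, 27 or 38. On other chromosomes 2n replicate 7 did (chromosome 47, 0.173), as did group 1 replicate 1 (chromosome 25, -0.137), with 56.3% and 65.2% of the windows on the same side. One-sided windows were not particular to these chromosomes. Of 1300 combinations, 10 had at least 90% of windows on one side, among them chromosomes 27 (100%) and 38 (95.8%) in the males with a shift. Chromosome 1 followed at rank 11 with 87.9%. Group 3 replicate 4 had 96.7% on chromosome 30, 93.8% on 22 and 92.0% on 15, at medians of -0.056, -0.092 and -0.064. On chromosome 1 the 2n males ran from -0.057 (replicate 7) to 0.057 (replicate 2), on chromosome 27 from -0.023 to 0.031 and on chromosome 38 from -0.045 to 0.024. In group 1, chromosome 38 was at 0.055 and 0.050 in replicates 1 and 2 and between -0.022 and -0.015 in replicates 3 to 5. With TMM scaling and the library median kept, 4 of the 78 combinations lay beyond 0.1, as 2n replicate 7 then measured -0.101 on chromosome 1. With means over genes in place of medians, 9 lay beyond it, among them group 1 replicate 1 on chromosome 38 at -0.127, and 3 when the library mean was also taken out.

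Single windows were another matter. Of 2314 windows of these chromosomes in 26 males, 82 lay beyond 0.25, and they were found mostly in 2n, where the scatter of single genes was also wider. In 2n they made up 10.0% of windows on chromosome 1, 6.56% on chromosome 27 and 1.67% on chromosome 38, beside 6.44% over all 50 chromosomes. In group 1 they made up 4.85%, 6.25% and 0%, beside 4.29%. In group 2 the shares were 0%, 1.25% and 0% beside 1.59%, and in group 3 they were 1.52%, 0.521% and 0% beside 0.578%. The median gene of chromosome 1 deviated by 0.261 to either side in 2n, by 0.234 in group 1, by 0.131 in group 2 and by 0.135 in group 3.

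The strongest contrast of a segment was on chromosome 1 in 2n replicate 2, from 17000001 to 24000000, ranked 2 of 1274. Its 5 windows averaged -0.379 against 0.083 for the rest. This mean rested on the last window, from 23000001 to 24000000, where 6 genes had a median of -1.95, and without it the mean was 0.013. Over the 59 genes of the run, 38 were below 0 and their median was -0.170, or -0.163 without that window. Those 6 genes together measured 16.5 CPM in 2n replicate 2 and 46.1 in replicate 1, and 67.3 to 108 in the other 8 diploid males. The sum was 68.0 to 83.9 CPM in group 1, 83.1 to 95.1 in group 2 and 85.5 to 99.7 in group 3, so the low values were those of 2 diploid males. Both carried the second library number 14, as did replicates 5, 6 and 7, which measured 87.9, 81.8 and 67.3 CPM.

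On chromosome 27 a run from 5000001 to 10000000 was low in group 1 replicate 1. It averaged -0.249 against 0.013 for the rest, ranked 22 of 1274, and without its last window, from 9000001 to 10000000, it averaged -0.210. Of 136 genes, 94 were below 0. The 5 windows of the run were uneven, at -0.429, -0.241, -0.076, -0.094 and -0.407. Outside the run the same male was as low in single windows, with -0.288 (17000001 to 18000000), -0.304 (19000001 to 20000000) and -0.428 (31000001 to 32000000, 6 genes), and as many windows of the chromosome lay above 0 as below. Group 1 replicate 2, the other library that stood apart in scaling, was also low in the first and last window of the run, at -0.266 and -0.184. The whole chromosome measured -0.029 in group 1 replicate 1, and from -0.174 to 0.033 over the alternatives run, so its direction was not stable. The window from 5000001 to 6000000 (20 genes) also differed widely among diploid males, at 0.510 in replicate 1, 0.484 in replicate 5 and -0.400 in replicate 9.

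**Figure D5:**
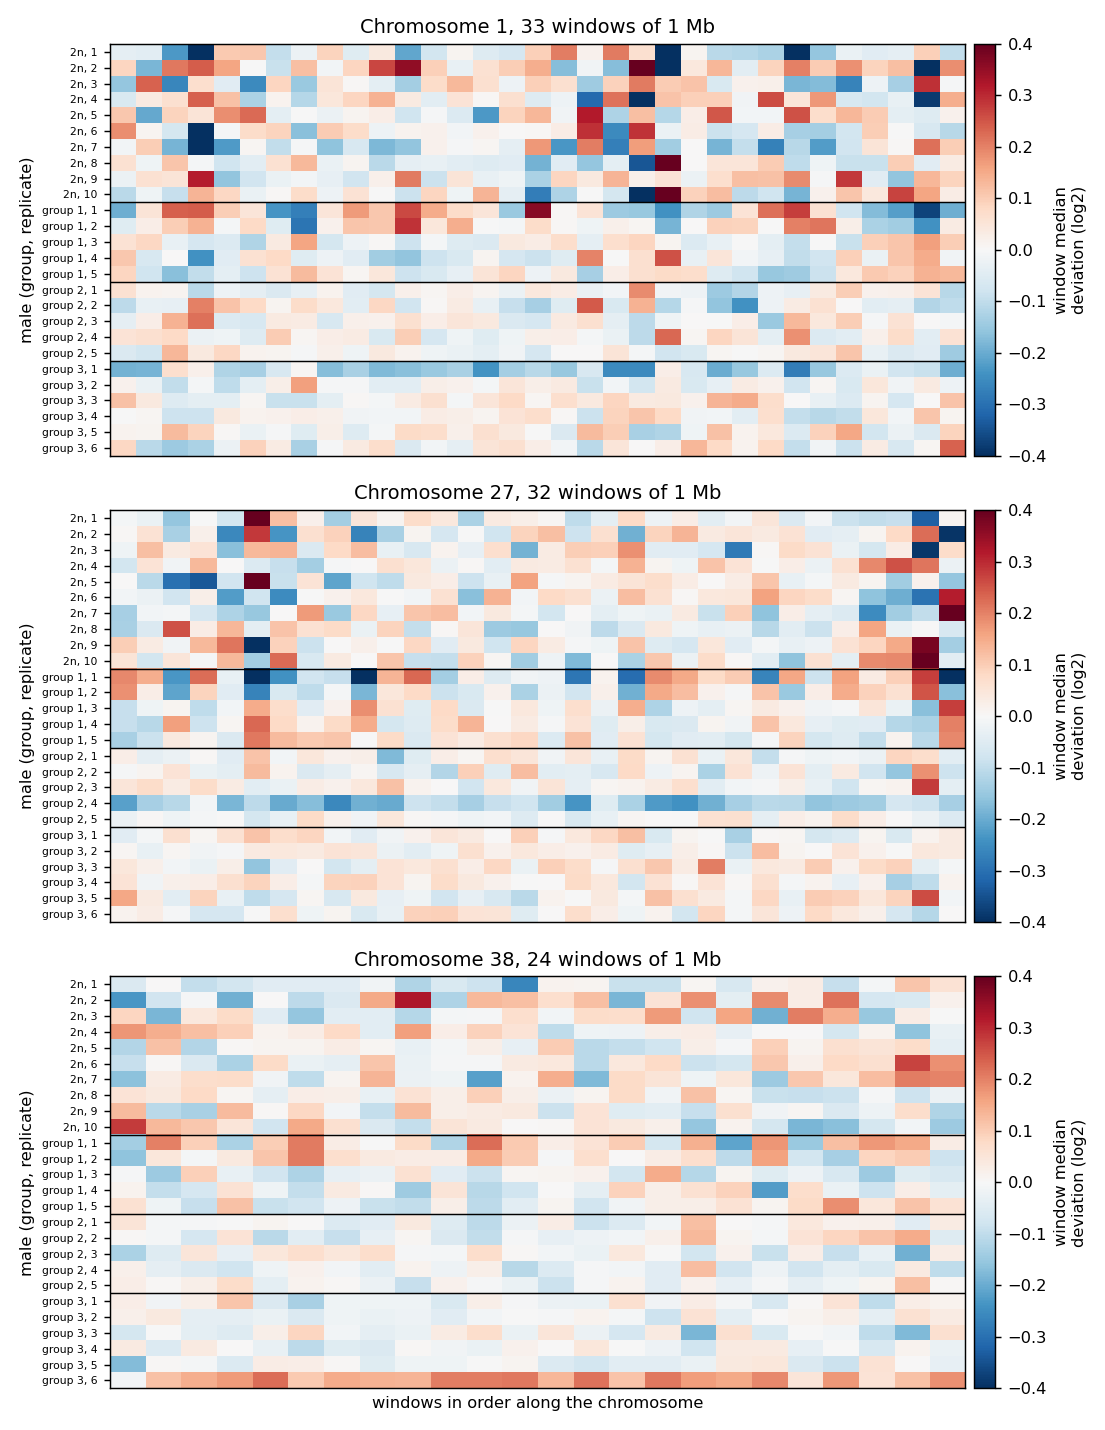
Median deviation (log2) of each 1 Mb window, with windows in order along the chromosome in columns and the 26 males in rows by group and replicate. Blue is lower and red higher than the reference, and colours end at 0.4 on either side. Windows are below 0 in 29 of 33 for group 3 replicate 1 on chromosome 1 and in 32 of 32 for group 2 replicate 4 on chromosome 27, and above 0 in 23 of 24 for group 3 replicate 6 on chromosome 38, while 2n and group 1 show strong single windows in changing order.

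Between groups, genes of these chromosomes were called about as often as all genes that passed the count filter of the test. The genes of these chromosomes had a mean of at least 1 CPM, and all genes tested had no such limit. The shares thus compare sets that were not matched in mean CPM. The test was edgeR's quasi-likelihood test with a Benjamini-Hochberg adjusted p under 0.05 over all genes tested. In 3n against 2n males, 474 of 2005 genes were called (23.6%), beside 25.5% of all 39578 genes tested. Higher were 184 genes (9.18%, beside 10.8%) and lower were 290 (14.5%, beside 14.7%). By chromosome 164 of 641 genes (25.6%) were called on chromosome 1, 179 of 788 (22.7%) on chromosome 27 and 131 of 576 (22.7%) on chromosome 38. The median log2 fold change was -0.02 over the 3 chromosomes and -0.02 over all genes. Without replicates 1 and 2 of group 1, 768 of 2000 genes were called (38.4%, beside 40.1% of all genes).

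Against the same 10 diploid males, the triploid groups gave more calls one by one, and all 2009 genes were tested. In group 1, 664 genes were called (33.1%, beside 34.0% of all 42352 genes), 278 higher (13.8%, beside 15.8%) and 386 lower (19.2%, beside 18.2%). In group 2 the number was 686 (34.1%, beside 35.2%), 266 higher (13.2%, beside 14.1%) and 420 lower (20.9%, beside 21.1%). In group 3 it was 878 (43.7%, beside 44.4%), 387 higher (19.3%, beside 17.7%) and 491 lower (24.4%, beside 26.7%). Without the 3 males with a shift, group 3 gave 534 (26.6%), beside 27.8% of all genes, so the number fell over the whole table. With only group 1 and 2n in the fit, 362 were called (18%, beside 19.7% of all genes). Against group 2, group 1 differed in 979 genes (48.7%, beside 47.9%), with 24.8% higher and 23.9% lower beside 25.8% and 22.2% of all genes. Against group 3 it differed in 1154 (57.4%, beside 56.5%), with 28.4% higher and 29.1% lower beside 30.7% and 25.8%. Without replicates 1 and 2 of group 1, group 1 gave 357 calls against 2n (17.8%, beside 18.8%), 531 against group 2 (26.4%, beside 27.4%) and 767 against group 3 (38.2%, beside 37.6%). These shares lay near that of all genes each time.

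Group 2 and group 3, which the series description gives the same kind of mother and different temperatures, differed in 0 of the 2009 genes by edgeR and in 0 by DESeq2, beside 0.0% of all genes. At an unadjusted p under 0.05 by edgeR there were 68, or 3.38%, beside 2.54%. Without group 3 replicate 6 there were 33, beside 714 of all 42313 genes tested. Without group 3 replicate 1 there were 78, and without group 2 replicate 4 there were 67. Without these 3 males there were 40, beside 820 of all 43008 genes tested. Medians of the log2 fold change of group 2 against group 3 moved when single males were left out. On chromosome 27 the median was -0.038, and -0.005 without group 2 replicate 4, and 27 of 30 windows with at least 10 genes tested were below 0. On chromosome 38 it was -0.043, and -0.012 without group 3 replicate 6, with 19 of 23 windows below 0. On chromosome 1 it was 0.009, and -0.012 without group 3 replicate 1. Without all 3 males the medians were 0.007, 0.015 and 0.015 on chromosomes 1, 27 and 38, so chromosomes 27 and 38 turned from below to above 0. The median over all genes was 0.028 without these males and 0.006 with them. The chromosomes were chosen for these males, so the moves of their medians add nothing independent.

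By window, the largest median log2 fold changes lay between group 1 and the other triploid groups. On chromosome 1 the window from 2000001 to 3000000 (14 genes) had a median log2 fold change of 0.64 in group 1 against group 2 and 0.86 against group 3, with 8 genes higher and 2 lower in each. The window from 28000001 to 29000000 (15 genes) followed with 0.59 and 0.60, and 8 genes higher and 3 lower. On chromosome 27 the window from 29000001 to 30000000 (15 genes) was at 0.60 and 0.56, with 8 genes higher in each and 0 or 1 lower, and the window from 10000001 to 11000000 (13 genes) was at -0.36 and -0.51, with 3 higher and 8 lower. On chromosome 38 the medians of windows kept between -0.35 and 0.39 in these comparisons. Over all genes tested, 25.8% were called higher and 22.2% lower in group 1 against group 2, and 30.7% and 25.8% against group 3. The windows named are the most extreme of 27 on chromosome 1 and of 30 on chromosome 27. Both comparisons share the males of group 1. Without its replicates 1 and 2 each of these medians kept its direction, but the numbers of genes called fell, save on chromosome 27 from 10000001 to 11000000 against group 3. Higher genes of the first window numbered 4 against group 2 and 6 against group 3, and those of the second also 4 and 6. On chromosome 27 the window from 29000001 to 30000000 had 6 higher in each, and the window from 10000001 to 11000000 had 4 and 8 lower. Of all genes tested without these replicates, 27.4% were called in group 1 against group 2 and 37.6% against group 3. The medians were then 0.54 and 0.85 in the first window of chromosome 1, and 0.34 and 0.49 in the second. On chromosome 27 they were 0.59 and 0.64, and -0.30 and -0.38. Against 2n, with all males, groups 1, 2 and 3 were at 0.29, -0.22 and -0.38 in the first window of chromosome 1. On chromosome 27 from 29000001 to 30000000 they were at 0.10, -0.31 and -0.39 against 2n. From 5000001 to 6000000 on chromosome 27 all 3 groups were below 2n, at -0.40, -0.31 and -0.33. Genes called there were 0 higher and 7 lower in group 1, 5 and 5 in group 2, and 5 and 6 in group 3. Without replicates 1 and 2 of group 1, group 1 was at -0.135 in this window, with 0 higher and 3 lower.

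In all 3 triploid groups against 2n, 32 of the 2009 genes were higher (1.59%, beside 2.36% of all genes tested) and 85 lower (4.23%, beside 4.84%). By chromosome 9 were higher and 27 lower on chromosome 1, 14 and 34 on chromosome 27, and 9 and 24 on chromosome 38. The 3 comparisons share the diploid males. The 2 highest and the 2 lowest with a mean of at least 8 CPM are given by ID, in coordinates of assembly ASM336829v1.

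The gene ENSCARG00000020206 (chromosome 1, 30521115 to 30522343, minus strand) measured 4.26, 14.4 and 62.7 CPM as lowest, median and highest of the 10 diploid males. In group 1 it measured 6.89, 6.84, 97.2, 102 and 106 CPM in replicates 1 to 5. Group 2 measured 156, 160, 179, 134 and 117 CPM, and group 3 from 95.7 over 120 (median) to 158. Groups 2 and 3 did not overlap with 2n, whereas 2 males of group 1 lay at the diploid level. In 3n against 2n its log2 fold change was 2.71 ± 0.517 (SE, edgeR adjusted p = 0.00035), and 2.90 without replicates 1 and 2 of group 1 (edgeR adjusted p = 1e-06).

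ENSCARG00000000823 (chromosome 1, 8642300 to 8643821, minus strand) measured 2.15, 4.00 and 5.15 CPM as lowest, median and highest in 2n. In group 1 the 5 males measured 15.0, 16.8, 15.9, 16.1 and 17.4 CPM, in group 2 they measured 11.4, 14.4, 9.10, 11.4 and 9.98, and group 3 ran from 6.60 over 9.91 to 13.7. All 16 triploid males were above all diploid males. Its log2 fold change in 3n against 2n was 1.83 ± 0.152 (SE, edgeR adjusted p = 1.9e-09).

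ENSCARG00000031169 (chromosome 1, 18280358 to 18308250, plus strand) ran from 3.25 over 49.5 to 73.3 CPM in 2n. The 5 males of group 1 measured 30.7, 21.9, 11.3, 17.7 and 9.62 CPM, those of group 2 measured 4.12, 5.30, 6.20, 4.00 and 4.60, and group 3 ran from 3.25 over 3.84 to 5.72. The diploid males were spread widely, and 2 of them, replicates 3 and 5, lay at the level of groups 2 and 3. In 3n against 2n its log2 fold change was -2.22 ± 0.393 (SE, edgeR adjusted p = 0.00015), and with the replicate number as a block it was -1.34 and not past the threshold (edgeR adjusted p = 0.095). Group 1 alone was called lower than 2n with all 5 males (-1.39, edgeR adjusted p = 0.028) and not without its replicates 1 and 2 (-1.63, edgeR adjusted p = 0.062).

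ENSCARG00000010768 (chromosome 38, 8767064 to 8832568, plus strand) ran from 6.43 over 27.2 to 39.4 CPM in 2n. Group 1 measured 18.5, 15.2, 10.5, 10.2 and 9.07 CPM, group 2 measured 3.55, 4.29, 5.36, 4.13 and 4.67, and group 3 ran from 3.25 over 3.52 to 4.72. Groups 2 and 3 lay below all diploid males, and group 1 overlapped with them. The log2 fold change in 3n against 2n was -1.85 ± 0.249 (SE, edgeR adjusted p = 5.1e-06). In group 3 replicate 6, whose chromosome 38 was higher, this gene measured 3.50 CPM, among the other males of its group.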

How the data were processed

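Testis RNA of 26 males was read as 1 library each. Per the labels' protocols, poly(A) RNA was made into strand-specific libraries with molecular identifiers. The deposited values are raw read counts per gene, made per the file headers with featureCounts 2.0.6 over exons, in reverse-stranded mode (2), from proper pairs of 1 to 25000 bp with mapping quality of at least 0, on the goldfish annotation ASM336829v1-104. Gibel carp reads were thus counted on genes of a related species, and reads of near-identical copies may be missing. Per the file headers, the table also gives each gene's exon length. No source used here says if reads were deduplicated by their identifiers. The submitters' processing notes name cutadapt 4.3, STAR 2.7.3a, Picard 2.25.6, MultiQC 1.10.1 and Subread 2.0. Of the IDs, 0 matched the 98729 genes of the reference table of assembly carGib1.2-hapl.c, so marker lists could not be used.

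Genes were tested with edgeR 4.0.16 (R 4.3.3; TMM, minimum count 10, robust quasi-likelihood fit, Benjamini-Hochberg), in a model of 2 groups for 3n against 2n and of 4 groups otherwise. DESeq2 1.42.0, other scalings and filters, fewer samples, a replicate block, the older dispersion estimate, group 1 as its replicates 3 to 5 and leaving out each male were alternatives. Deviations and 1 Mb windows carry no test. Replicate numbers were not taken as pairs in the main fit. Deviations of pairs with the same number correlated at -0.395 to 0.243, over 0.1 in 4 of 31 pairs. Pairs with different numbers were not measured, so this cannot decide whether the numbers pair samples. The members, windows and thresholds were chosen with earlier results of these data known. Genes are named as the 2 highest and 2 lowest mean log2 fold changes among genes called the same way in all 3 triploid groups, with at least 8 CPM. Single windows and runs are given for the 2 highest and 2 lowest males of each chromosome and the most extreme group comparisons, and the window of 6 genes on chromosome 1 was singled out after its values were seen. The gene test and the deviations were tested on simulated data. Totals of 15375923 to 29503544 counts set the precision of each value.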

Additional observations from a re-analysis of the deposited data

Results flagged for a closer look

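In groups of 5 to 10 males, 40 groups of values were examined for a male far from the others, and 7 held one. Chance passes the threshold used in about 1 in 20 independent groups. These groups share males and most of the 7 follow from the choice of chromosomes, so their number is no test. Group 3 replicate 1 was far below the other males of group 3 in the median deviation of chromosome 1 (-0.134) and in its share of counts (1.76%). Group 2 replicate 4 was far below group 2 in the median deviation of chromosome 27 (-0.146) and in its share of counts (2.22%). Group 3 replicate 6 was far above group 3 in the median deviation of chromosome 38 (0.155) and in its share of counts (2.24%). These 6 values concern the males the chromosomes were chosen for, so they add nothing independent. The seventh was 2n replicate 1, whose median deviation on chromosome 38 (-0.045) was below those of the other 9 diploid males. In that male 16 of 24 windows of chromosome 38 were below 0.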

How the results depend on the processing

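The 3 shifts kept their direction and stayed beyond 0.1 under every alternative run, with -0.162 to -0.114 for chromosome 1, -0.156 to -0.140 for chromosome 27 and 0.130 to 0.177 for chromosome 38. Counts of called genes, over alternatives that leave out 1 male, ran from 413 to 611 for 3n against 2n. Group 1 against 2n gave 504 to 750, group 2 gave 538 to 734 and group 3 gave 717 to 915. Group 1 gave 799 to 1028 against group 2 and 1019 to 1182 against group 3, and group 2 against group 3 gave 0 to 0. With each male left out, the share of these genes called lay within -2.5 to 1.8 percentage points of that of all genes, so the counts moved with the whole table. The number of shifts was 3 to 3 and that of windows beyond 0.25 was 76 to 95. Counts that moved by over 1.5 times were those of group 1 against 2n with only these groups in the fit (362), of group 3 against 2n without the 3 males with a shift (534, chosen after seeing the data), of shifts with means over genes (9), and of windows with means over genes (126) or in 2 Mb windows (15 of 1196), and the cause was not tested. They also moved with group 1 as its replicates 3 to 5, chosen after seeing the data, where 768 genes were called for 3n against 2n and 357, 531 and 767 for group 1 against 2n, group 2 and group 3. The direction of the 4 named genes in 3n against 2n held under all 34 alternatives, and the one call lost was ENSCARG00000031169 with the replicate block. With the replicate block, called genes numbered 317 for 3n against 2n, 600, 593 and 743 for groups 1, 2 and 3 against 2n, 1005 and 1119 for group 1 against groups 2 and 3, and 0 for group 2 against group 3. For 3n against 2n this was 15.8% beside 16.5% of all genes, for groups 1, 2 and 3 it was 29.9, 29.5 and 37% beside 30.1, 30.2 and 38%, and for group 1 against groups 2 and 3 it was 50% and 55.7% beside 48.9% and 55%. Samples of a block are known to share only a number. With only the 2n males of second library number 108, 372 genes were called for 3n against 2n (18.5%, beside 20.1% of all genes). Groups 1, 2 and 3 against these males gave 615, 886 and 1035 (30.6, 44.1 and 51.5%, beside 31.9, 45.8 and 52.3%). Depth limits windows with few or low genes, and with genes of at least 8 CPM, 86 of 2106 windows lay beyond 0.25.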
